A study of Mus musculus with 8 samples.

Results

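RNA of the NF-kappaB and I-kappaB family was compared in mouse T-cell progenitors with and without CRISPR guides against both STAT5 genes, on either side of commitment to the T lineage. The family was taken by gene symbol and holds 10 genes. They are the 5 subunits Rela, Relb, Rel, Nfkb1 and Nfkb2, the 3 cytoplasmic inhibitors Nfkbia, Nfkbib and Nfkbie, and 2 nuclear I-kappaB proteins, Bcl3 and Nfkbiz. A further I-kappaB gene, Nfkbid, is not among the 10 and is counted below with the brakes of the pathway. All 10 were found among the 24506 symbols of the count table, and all 10 were among the 13775 genes tested. None depended on the filter for low counts, since the lowest count of any member in any library was 51, for Relb. The family was selected on earlier results of these same libraries, in which Bcl3 stood among the genes most raised by the Stat5 guides. Values of sgStat5 against control are therefore a description of the members, without p-values, and nothing is read from how many passed.

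NF-kappaB proteins are dimers of Rel-domain subunits that bind kappaB sites in DNA. In the canonical route, receptor signals activate a kinase complex that removes the cytoplasmic inhibitors and frees dimers such as RELA with p50, the product of Nfkb1. In the non-canonical route, the p100 product of Nfkb2 is cut to p52, the usual partner of RELB. BCL3 is a nuclear relative of the inhibitors that binds p50 and p52 dimers and can alter what they do at a promoter. Several members, among them Nfkbia, Nfkb2 and Relb, are themselves known as NF-kappaB target genes. RNA alone was measured here, so neither protein, processing nor place in the cell is known.

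Bone-marrow progenitors came from B6 mice with CRISPR-Cas9, Bcl2 and Bcl11b-mCherry alleles, so that Cas9 and the survival factor Bcl2 were present in all 4 groups. They received by retrovirus either control guides or 3 guides each against Stat5a and Stat5b (sgStat5), and grew for 6 days on OP9-DLL1, stromal cells presenting the Notch ligand DLL1, in medium that held 10 ng/ml of IL-7 and as much Flt3l. STAT5 carries the signal of IL-7, on which these cells depend. Lin- infection marker+ CD25+ cells were then sorted without mCherry (early gate, before commitment) or with it (late gate, after commitment). The series text also calls the late cells reporter negative, while their sample names say Bcl11b positive. Each of the 4 groups, early control, early sgStat5, late control and late sgStat5, has 2 libraries, numbered 1 and 2. The sources used here do not name the target of the control guides or state if the replicates of a group come from different cultures or mice, so the p-values reflect no more than the spread between these libraries, which may be technical.

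Libraries held 22146490 to 31209177 counts. Stat5a fell with its guides, from a mean of 257 to 105 CPM in the early gate (log2 fold change -1.29, edgeR adjusted p = 0.0112) and by 1.15 on the log2 scale in the late gate (edgeR adjusted p = 0.00451). Stat5b fell by 0.86 and 0.89. CPM values are counts relative to the library total after TMM scaling. All 10 T-progenitor markers were above 1 CPM. Of the marker lists for other cells, 8 of 18 myeloid and dendritic, 7 of 10 B-cell, 3 of 15 NK and innate lymphoid, 7 of 12 mast, erythroid and megakaryocyte and 2 of 15 stromal genes never passed 1 CPM, and the B-cell marker Ms4a1 and the stromal marker Lum had no count in any library. The OP9-DLL1 layer is a stromal source in every culture. In bulk RNA, fewer cells of a type and less RNA per cell cannot be told apart. Replicate numbers recurred in every group, and libraries with the same number deviated together, so each test was also run with the replicate number as a block (a term for replicate 1 against 2). For members between the gates, its value stands beside the plain one where the call differs. For list genes called only with the block, its value alone is given.

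Within the family, levels per transcript length differed widely. In early control cells, Nfkb1 had the highest deposited FPKM, 70.5 ± 2.51 (SD, n = 2 here and throughout), and Rela followed with 19.3 ± 0.221. The inhibitors Nfkbib (14.4 ± 1.96 FPKM) and Nfkbie (11.9 ± 2.27 FPKM) came next, and their libraries overlapped. Nfkbia stood at 7.76 ± 1.11 FPKM, Nfkb2 at 6.23 ± 0.128 and Rel at 4.02 ± 0.169, each apart from its neighbours. Bcl3 (2.30 ± 0.511), Nfkbiz (1.54 ± 0.551) and Relb (1.34 ± 0.185) closed the order, with Nfkbiz and Relb overlapping. Thus the subunits of the canonical dimer led the family and Relb, the non-canonical subunit, was last.

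The order was different in late sgStat5 cells. Nfkb1 was still highest at 45.1 ± 2.11 FPKM, and the inhibitors Nfkbia (25.3 ± 10.1 FPKM) and Nfkbie (25.2 ± 11.5 FPKM) overlapped with Rela (21.8 ± 0.771 FPKM). Nfkb2 (13.9 ± 5.30 FPKM), Nfkbib (11.8 ± 0.339 FPKM) and Bcl3 (11.0 ± 1.55 FPKM) overlapped with each other in turn. Relb, at 5.67 ± 1.14 FPKM, was above Rel (4.04 ± 0.0134 FPKM), the subunit c-Rel, and Nfkbiz was last at 2.62 ± 0.00778 FPKM. Nfkbiz is represented by different transcripts in the FPKM and count tables, so its place in this order and its CPM do not describe the same transcript.

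**Figure D1:**
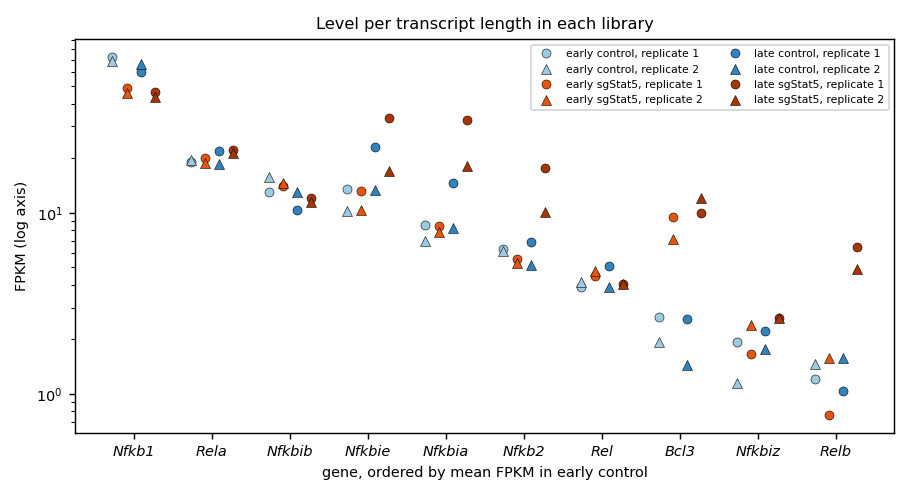
Deposited FPKM (y axis, log scale) of the 10 genes, ordered on the x axis by their mean in early control cells; each point is 1 library, circles replicate 1 and triangles replicate 2. Nfkb1 is highest in every library, and the dark red late sgStat5 points of Relb, at 4.87 and 6.47 FPKM, lie above its other 6.

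The promoters of 4 members whose levels differed between groups, and which the RefSeq promoter table holds, are shown for their kappaB and STAT letters, as the 250 bases before the start of the counted transcript, from RefSeq (GRCm38.p6), 5′ to 3′ along the gene. Capitals mark matches on either strand to the kappaB consensus or to the STAT palindrome TTCNNNGAA. They are the promoters of Bcl3 (chr7:19822756-19823005, minus strand), Nfkb2 (chr19:46304487-46304736, plus strand), Nfkbia (chr12:55492648-55492897, minus strand) and Nfkbie (chr17:45555450-45555699, plus strand).
Bcl3: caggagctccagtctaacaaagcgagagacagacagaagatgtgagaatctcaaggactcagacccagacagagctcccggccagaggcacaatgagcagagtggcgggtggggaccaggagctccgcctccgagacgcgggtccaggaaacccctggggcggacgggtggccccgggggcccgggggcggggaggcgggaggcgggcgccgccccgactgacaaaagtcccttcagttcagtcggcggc
Nfkb2: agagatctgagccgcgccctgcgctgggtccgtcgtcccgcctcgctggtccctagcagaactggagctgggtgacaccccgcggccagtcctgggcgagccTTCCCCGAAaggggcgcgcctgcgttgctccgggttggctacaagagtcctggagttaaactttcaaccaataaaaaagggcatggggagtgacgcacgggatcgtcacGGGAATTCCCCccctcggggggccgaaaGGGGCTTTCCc
Nfkbia: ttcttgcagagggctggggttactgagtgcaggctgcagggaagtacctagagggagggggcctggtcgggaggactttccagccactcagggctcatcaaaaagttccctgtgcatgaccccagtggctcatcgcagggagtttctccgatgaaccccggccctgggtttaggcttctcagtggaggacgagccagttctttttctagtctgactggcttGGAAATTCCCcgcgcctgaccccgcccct
Nfkbie: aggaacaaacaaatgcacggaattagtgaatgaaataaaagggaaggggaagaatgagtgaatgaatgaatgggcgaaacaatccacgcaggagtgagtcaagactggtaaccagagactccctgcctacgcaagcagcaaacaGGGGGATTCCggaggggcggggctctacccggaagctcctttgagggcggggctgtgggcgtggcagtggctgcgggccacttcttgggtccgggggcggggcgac
The Nfkb2 window held the STAT letters TTCCCCGAA, 148 to 140 bases before the start, and kappaB matches that begin 39, 38 and 11 bases before it, of which those at 39 and 38 overlap each other. Nfkbia had the kappaB match GGAAATTCCC from 29 to 20 bases before the start, and Nfkbie had GGGGGATTCC from 106 to 97. The Bcl3 window held neither motif. No STAT match overlapped a kappaB match. Of the 10 members 7 were matched in the RefSeq promoter table, by 9 promoters; Nfkb1, Relb and Nfkbiz were not. A kappaB match was present for 4 of the 7 (Nfkb2, Nfkbia, Nfkbie and Rel) and a STAT match for 1. Over all 32851 promoters of that length, 7.25% held the kappaB consensus and 7.02% the STAT palindrome; counted by gene, as for the members, the shares were 8.23% and 8.13% of 27025 genes. A match is a string of letters, not a measured site.

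Bcl3 was higher with Stat5 guides in both gates, with the highest ratio of group means of the 10 members; in the late gate Relb came close (log2 differences 2.39, SE 0.33, and 2.04, SE 0.41) and had the higher ratio in replicate 1 (5.95 against 3.65). Bcl3 (NM_033601, mm10 chr7:19808462-19822755, minus strand) was at 6.89 and 4.85 CPM in the early control libraries, replicate 1 given before replicate 2, and at 23.7 and 18.5 in early sgStat5. Late control libraries had 6.66 and 3.71 CPM and late sgStat5 libraries 24.3 and 30.0. Every sgStat5 library was thus above every control library, in both gates. The ratio to control of the same replicate number was 3.44 and 3.81 in the early gate and 3.65 and 8.08 in the late gate. On the log2 scale the difference was 1.85 (SE 0.32) in the early gate and 2.39 (SE 0.33) in the late gate, and the late effect minus the early was 0.54 (SE 0.45). Nfkbiz, the other nuclear I-kappaB gene of the 10, showed no such gap. Its early libraries had 9.96 and 5.75 CPM with control guides and 8.36 and 12.2 with Stat5 guides. Late ones had 11.2 and 9.10 against 12.7 and 12.6. Its early groups overlapped, while both late sgStat5 libraries were above both late controls, and its log2 differences were 0.39 (SE 0.31) and 0.32 (SE 0.31).

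Nfkb1 differed the other way. This gene (NM_008689, mm10 chr3:135584655-135691547, minus strand), which encodes p105 and p50, was at 420 and 386 CPM in early control and at 275 and 265 in early sgStat5. In the late gate it was at 343 and 383 CPM with control guides and at 255 and 241 with Stat5 guides. All 4 sgStat5 libraries were below all 4 control libraries, and the log2 differences were similar in size, -0.58 (SE 0.09) and -0.55 (SE 0.09). The summed CPM of the 10 members, in which Nfkb1 is by far the largest part, ran from 593 to 646 with control guides and 494 to 510 with Stat5 guides in the early gate, and from 596 to 625 and 547 to 676 in the late gate.

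Relb and Nfkb2, the non-canonical subunits, were high in late sgStat5 cells. Relb (NM_001290457, mm10 chr7:19606223-19629438, minus strand) was at 3.74 and 4.40 CPM in early cells with control guides and at 2.29 and 4.88 CPM with Stat5 guides. Late cells had 3.18 and 4.87 CPM with control guides and 18.9 and 14.4 CPM with Stat5 guides. Both late sgStat5 libraries were above the other 6, which overlapped between groups. The late difference from control was 2.04 (SE 0.41) on the log2 scale, with replicate ratios of 5.95 and 2.95, and the early one was -0.18 (SE 0.40).

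Nfkb2 (NM_001177369, mm10 chr19:46304737-46312090, plus strand) was at 27.2 and 25.6 CPM in early cells with control guides and at 23.1 and 22.7 CPM with Stat5 guides. Late cells had 29.4 and 22.0 CPM with control guides and 71.4 and 41.5 CPM with Stat5 guides. Its late sgStat5 libraries were again the highest, although they also differed from each other by more CPM than any other pair of its replicates. The log2 difference was 1.13 (SE 0.26) in the late gate and -0.20 (SE 0.26) in the early gate, where the sgStat5 libraries were slightly below the controls. Exons of other genes lie across Nfkb2 on the other strand, those of Psd for 299 bases and those of the unnamed gene model AC114539.1 for 531, and the library kit does not mark strand. Nfkbib shares 314 such bases with Ccer2, which had at most 11 counts, and Bcl3 shares 55 with Gm16175. Psd was itself at 7.87 and 6.56 CPM in late sgStat5 and at most 3.41 CPM elsewhere, so reads of Psd and Nfkb2 where they overlap cannot be told apart.

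The inhibitor Nfkbia was also highest in late sgStat5 cells. Nfkbia (NM_010907, mm10 chr12:55489409-55492647, minus strand) encodes I-kappaB alpha, which holds NF-kappaB in the cytoplasm. It was at 19.1 and 15.1 CPM in early cells with control guides and at 18.2 and 17.4 CPM with Stat5 guides. Late cells had 32.4 and 18.3 CPM with control guides and 68.2 and 38.6 CPM with Stat5 guides. In the late gate replicate 1 was well above replicate 2 with either guide, and the ratio of sgStat5 to control within a replicate number was 2.11 for each. The log2 difference was 1.08 (SE 0.34) in the late gate and 0.06 (SE 0.34) in the early gate.

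Nfkbie (NM_008690, mm10 chr17:45555700-45563168, plus strand), which encodes I-kappaB epsilon, was at 46.6 and 34.3 CPM in early control and 43.6 and 35.6 in early sgStat5. In the late gate it was at 78.2 and 45.7 CPM with control guides and 108 and 56.0 with Stat5 guides. These groups overlapped in both gates, with log2 differences of -0.03 (SE 0.37) and 0.41 (SE 0.36). Nfkbib (NM_001306222, mm10 chr7:28759038-28766644, minus strand), the I-kappaB beta gene, lay between 19.6 and 29.5 CPM in all 8 libraries, and its groups overlapped in both gates (log2 differences -0.01 and -0.05, SE 0.16 for both).

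Rela and Rel, the canonical activating subunits, differed little. Rela (NM_009045, mm10 chr19:5637490-5648130, plus strand) lay between 70.3 and 83.2 CPM in all 8 libraries, and its log2 differences were -0.00 (SE 0.11) in the early gate and 0.04 (SE 0.11) in the late gate. Rel (NM_009044, mm10 chr11:23741729-23770970, minus strand) was at 14.2 and 14.6 CPM with control guides and 15.7 and 17.4 CPM with Stat5 guides in early cells, against 18.4 and 14.1 CPM and 13.9 and 14.1 CPM in late cells. Its early sgStat5 libraries were above the early controls, by 0.20 (SE 0.17) on the log2 scale. In late cells the difference was -0.22 (SE 0.17) and rested on control replicate 1: replicate 2 had a ratio of 0.997, and in the deposited FPKM the late groups overlapped (4.03 and 4.05 with Stat5 guides, 5.10 and 3.90 with control guides). For Rela the intervals of 1 SE on both sides of these differences include 0.

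**Figure D2:**
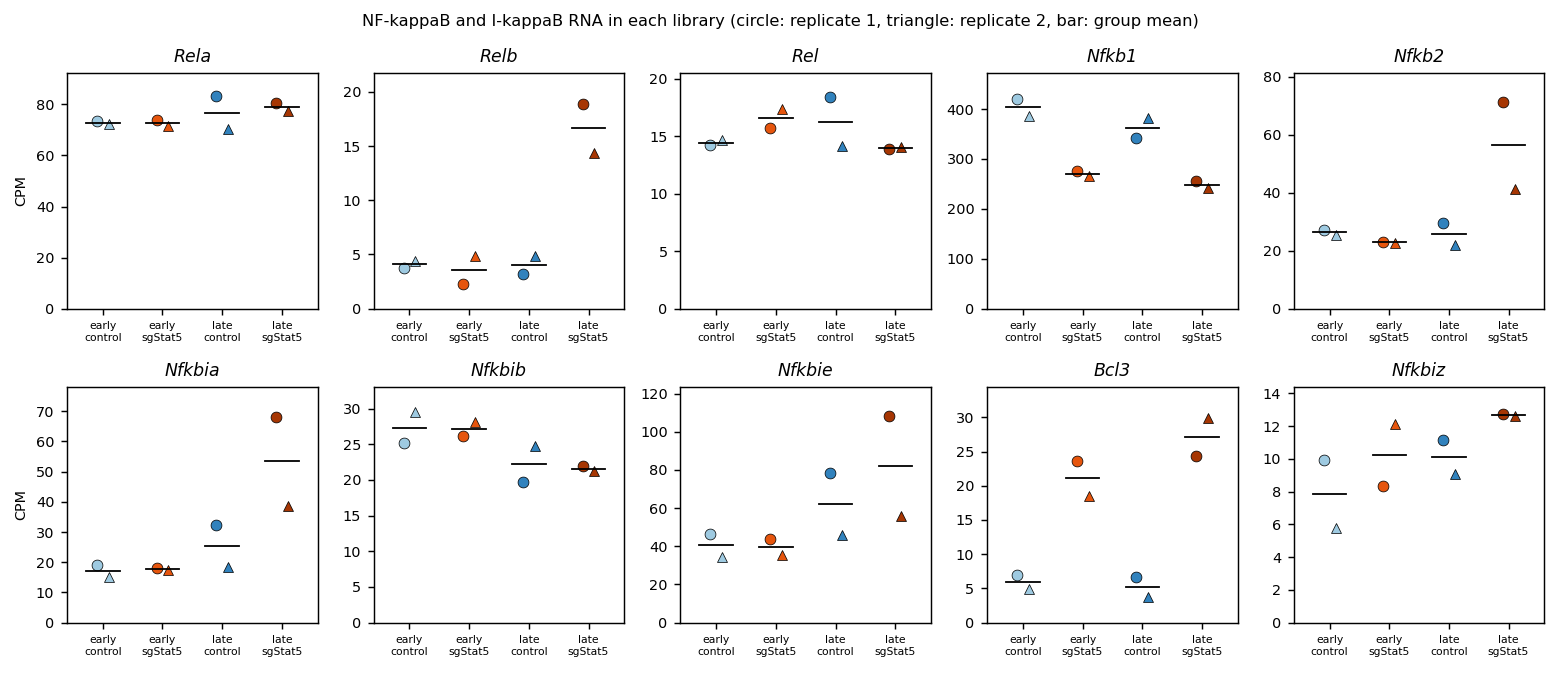
CPM of each gene (y axis, from 0, a separate scale per panel) in the 4 groups (x axis); circles are replicate 1, triangles replicate 2 and bars the group means of 2 libraries. Bcl3 is high in both sgStat5 groups and Nfkb1 low in both, while Relb, Nfkb2 and Nfkbia are high in late sgStat5.

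Counts of members stood as follows, and the choice of the family bars any reading of them. In the early gate edgeR called none of the 10 without the block, where it called 0.269% of all genes, and 2 with the block (Bcl3 higher, Nfkb1 lower), where it called 2.33%. At an unadjusted p under 0.05 without the block there were 2 members, beside 887 of all 13775 genes. DESeq2 called 2 members. Its share over all genes was not recorded for any comparison. Among late cells edgeR called 2 (Bcl3 and Nfkb1) without the block, where 1.71% of genes were called, and 5 with the block (Bcl3, Relb, Nfkb2 and Nfkbia higher, Nfkb1 lower), where 8.22% were. There, 5 members were at an unadjusted p under 0.05 without the block, beside 1713 of all 13775 genes, and DESeq2 called 5 members. Groups did not overlap for 4 of 10 members in the early gate and 7 of 10 in the late gate, beside 38.1% and 38.9% of all genes. The median log2 difference of the members was -0.01 in the early gate and 0.37 in the late gate, beside -0.00 and -0.02 over all genes tested. For the late effect minus the early, edgeR called no member and 0% of genes, with and without the block; 2 members and 302 genes were under an unadjusted p of 0.05, and DESeq2 called no member. That difference was 2.22 (SE 0.57) for Relb, 1.34 (SE 0.37) for Nfkb2 and 1.02 (SE 0.48) for Nfkbia. With the block, leaving out early control replicate 1 left no member called in the early gate, leaving out early control replicate 2 left Nfkb1 and leaving out early sgStat5 replicate 2 left Bcl3. With late cells the 5 came down to Bcl3 and Nfkb1 without late sgStat5 replicate 1. Without the block, the late gate had Bcl3 alone without late control replicate 1, Nfkb2 alone without late sgStat5 replicate 2, and none without either of the other two libraries.

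Summed levels of some marker lists for other cells also differed with the guides, although few of their genes were called. From late control to late sgStat5, the summed CPM of the NK and innate lymphoid list went from 1083–1746 to 1899–2253. Gzma and Rora were called higher with the block, 2 of 13 tested, beside 8.22% of all genes. The log2 change was above 0 for 8 of the 13. The sum was carried by Gzma (means of 1142 to 1839 CPM), while Gzmb went from 95.4 to 44.7 CPM and Nkg7 from 125 to 103 CPM. The mast, erythroid and megakaryocyte list went from 341–404 to 515–556 (median log2 change 0.36 over 8 tested genes) and the myeloid and dendritic list from 11.7–22.8 to 15.8–34.2, with no gene of either called by edgeR with or without the block (1 of each under an unadjusted p of 0.05 with it). From early control to early sgStat5, the myeloid list went from 48.5–49.7 to 72.5–94.3. That rise was largely of Mpo (19.8 to 43.9 CPM), and 8 of 12 tested genes had a log2 change above 0. The mast, erythroid and megakaryocyte list went from 911–1151 to 1170–1547, although its median log2 change was -0.05, with 4 of 8 tested genes above 0; the sum was carried by Hbb-bs (310 to 516 CPM) and Cpa3 (465 to 548 CPM), while Mcpt8 was at 22.5 and 13.9 CPM. No gene of either list was called by edgeR (4 of 12 and 1 of 8 under an unadjusted p of 0.05 with the block). With the block, 1757 of all 13775 genes were under that p in the early gate and 3022 in the late gate. The summed stromal list overlapped between guides in both gates. In that list Timp3 fell in both gates, from 5.59 to 1.06 CPM (edgeR adjusted p = 0.0382) and from 9.74 to 0.842 CPM (edgeR adjusted p = 0.00451), and was the 1 gene of 13 called. The T-progenitor list summed to 5389–6184 CPM in early control and 4793–5044 in early sgStat5 cells, and overlapped in the late gate. With the block, 1 of its 10 genes was called higher and 2 lower in the early gate, and 3 and 2 in the late gate. The same fit called 2.33% and 8.22% of all genes. Il7r was higher in both gates, and Thy1 and Il2ra, which encodes CD25, were lower in both. Il2ra means were 3019 (control) and 2068 CPM (sgStat5) early, and 3011 and 1630 CPM late. The part of all these in the members' values was not tested.

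The comparison of the gates asks how the family differs across commitment. In control cells no member was called by edgeR without the block, where 0.0145% of genes were called. No member was under an unadjusted p of 0.05, where 2049 of 13775 genes were, and DESeq2 called no member. The groups overlapped for 8 of the 10, and did not for Nfkb1 and Nfkbib, both lower in the late gate by 0.15 (SE 0.09) and 0.30 (SE 0.16) on the log2 scale; over all genes 48.8% did not overlap. With the block, which called 10.9% of genes, Nfkbie was the 1 member called: it rose by 0.58 (SE 0.15) on the log2 scale (edgeR with the block, adjusted p = 0.0431; without it 0.62, SE 0.37, adjusted p = 0.471). The control libraries also entered the comparisons with sgStat5 on which the family was chosen, so p-values in control cells are not fully independent of that choice. The late to early ratio of Nfkbie was 1.68 in replicate 1 and 1.33 in replicate 2. Leaving out any of the 4 libraries ended this call, with adjusted p between 0.0522 and 0.387 in edgeR with the block.

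In sgStat5 cells the members called between the gates in the fit with the block were the non-canonical pair Relb and Nfkb2 and the inhibitors Nfkbia and Nfkbie. The p-values given here are not independent of the choice of the family, as set out below. Without the block edgeR called none of the 10 beside 0.973% of genes. There, 4 members and 3305 of 13775 genes were under an unadjusted p of 0.05, and DESeq2 called 4 members. With the block, 22.8% of genes and 4 of 10 members were called, all 4 higher in the late gate. Relb rose by 2.28 (SE 0.35) on the log2 scale, from a mean of 3.58 to 16.6 CPM (adjusted p = 0.00266 in edgeR with the block, 0.0600 without). Nfkbia rose by 1.52 (SE 0.20), from 17.8 to 53.4 CPM (adjusted p = 0.00136 in edgeR with the block, 0.0730 without). Nfkb2 rose by 1.26 (SE 0.18), from 22.9 to 56.4 CPM (adjusted p = 0.00225 in edgeR with the block, 0.0666 without). Nfkbie rose by 0.99 (SE 0.15), from 39.6 to 82.2 CPM (adjusted p = 0.00308 in edgeR with the block, 0.149 without).

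Fits with the block that left out each of the 4 libraries in turn were chosen after seeing the data and leave 1 library in a group. They are no separate support for these 4 calls, none of which was made by edgeR without the block. The ratio of late to early sgStat5 was larger in replicate 1 than in replicate 2 for all 4, at 8.26 and 2.95 for Relb, 3.75 and 2.21 for Nfkbia, 3.09 and 1.83 for Nfkb2, and 2.48 and 1.57 for Nfkbie. Groups did not overlap for any of the 10 members, 7 higher and 3 lower, where 56.2% of all genes did not overlap. The late sgStat5 libraries also enter the comparison with late control, so the high values of these genes there are not a separate observation. The p-values between the gates in sgStat5 cells are therefore not independent of the choice of the family.

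The other 6 members were not called in sgStat5 cells. Bcl3, high in both sgStat5 groups, went from 21.1 to 27.1 CPM between the gates (0.36, SE 0.31, edgeR adjusted p = 0.506; 0.259 with the block). Rela and Nfkbiz were higher by 0.12 (SE 0.11) and 0.30 (SE 0.31) on the log2 scale, and Rel, Nfkb1 and Nfkbib differed by -0.24 (SE 0.17), -0.12 (SE 0.09) and -0.33 (SE 0.16). Adjusted p ran from 0.247 for Nfkbib to 0.585 for Nfkbiz in edgeR. Whether the late and early gates differ more in sgStat5 than in control cells is the same difference of effects as above, for which no member passed.

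**Figure D3:**
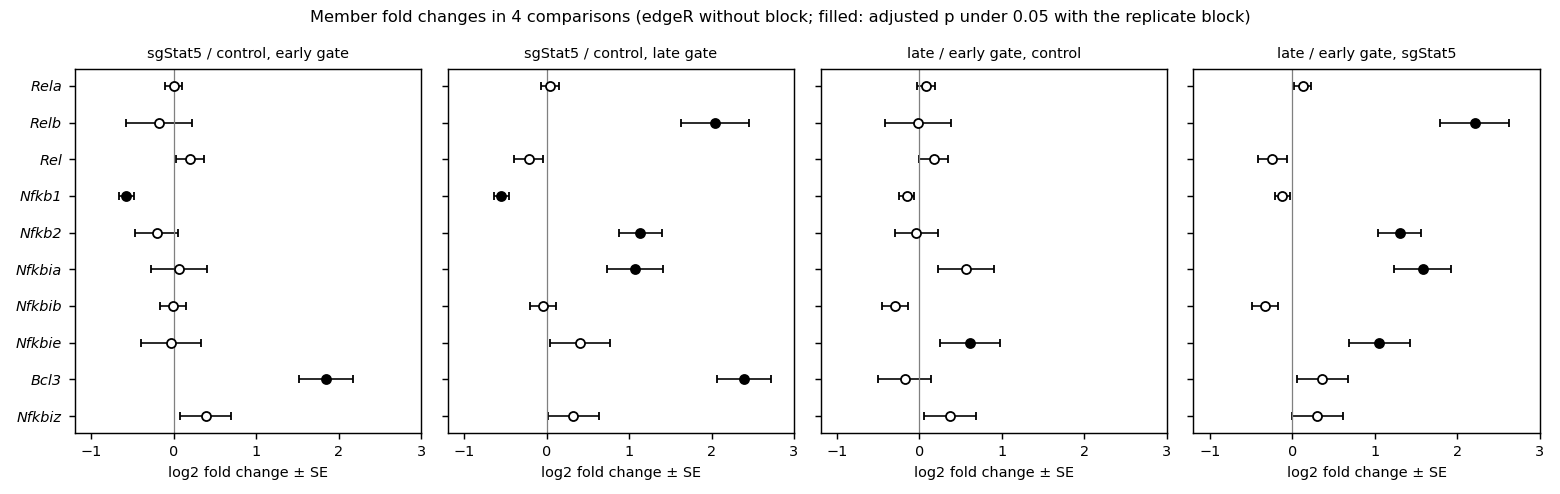
Log2 fold changes from edgeR without the block (x axis, with bars of 1 SE) of the 10 genes (y axis) in 4 comparisons; filled points had an adjusted p under 0.05 with the replicate block. In the late and early sgStat5 comparison Relb, Nfkb2, Nfkbia and Nfkbie are filled, and in control cells Nfkbie alone.

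Several members differed in step with the replicate number. Replicate 1 was higher than replicate 2 in 4 of 4 groups for Rela, Nfkb2, Nfkbia and Nfkbie, in 3 of 4 for Bcl3, Nfkb1 and Nfkbiz, and in 1 of 4 for Relb, Rel and Nfkbib. Bcl11b, whose reporter sets the gates, was also higher in replicate 1 in 4 of 4 groups, at 132 and 45.6 CPM (control) and 132 and 70.1 CPM (sgStat5) in early cells, and 542 and 219 CPM (control) and 797 and 415 CPM (sgStat5) in late ones. In the late gate Bcl11b was called higher with Stat5 guides with the block (0.74, SE 0.14, edgeR adjusted p = 0.0106). Without the block it was not called (0.67, SE 0.63, edgeR adjusted p = 0.755). Between the gates, the summed CPM of the stromal list went from 220–481 (early) to 608–826 (late) with control guides and from 193–428 to 624–810 with Stat5 guides, with 1 of 13 tested genes called higher with the block in control cells and 4 in sgStat5 cells. The mast, erythroid and megakaryocyte list went the other way, from 911–1151 to 341–404 in control and from 1170–1547 to 515–556 in sgStat5 cells. The myeloid and dendritic list went from 48.5–49.7 to 11.7–22.8 and from 72.5–94.3 to 15.8–34.2, with Itgax called lower in sgStat5 cells without the block too (-2.66, SE 0.41, edgeR adjusted p = 0.0486). With the block, 3 of 12 tested genes of that list were called lower and 1, Ly6c2, higher in control as in sgStat5 cells. Of 13 NK and innate lymphoid genes, 4 were called lower in both, and Gzma was called higher in sgStat5 cells. Of 10 T-progenitor genes, 6 were called higher in both. Kit was called lower in both, and Il2ra in sgStat5 cells alone. The same fit called 10.9% of all genes in control and 22.8% in sgStat5 cells. What part these have in the members' values was not tested.

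Genes of the pathway around the family were counted from 4 lists. Like the members, the lists were chosen with earlier results of these libraries known. Adjusted p-values of list genes in sgStat5 against control are thus a description and no separate support. Among 20 receptors and ligands, of which 19 were tested, edgeR called 3 lower and none higher with Stat5 guides in the early gate. Lta, which encodes the ligand lymphotoxin alpha, fell by 3.26 (SE 0.41, adjusted p = 0.0382), from 8.19 to 0.848 CPM. Tnfrsf9, whose product 4-1BB is a costimulatory receptor, had a log2 change of -2.77 (SE 0.23, adjusted p = 0.0133), and Tnfsf11, the ligand RANKL, one of -1.79 (SE 0.19, adjusted p = 0.0213). The same 3 fell in the late gate, by 3.09 (SE 0.40), 2.44 (SE 0.23) and 2.26 (SE 0.20) on the log2 scale with edgeR adjusted p of 0.0159, 0.00527 and 0.00451, and Tnfrsf18, the receptor GITR, fell by 1.03 (SE 0.17, adjusted p = 0.0367).

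With the block, the receptor Cd27 rose in both gates (0.36, SE 0.07, adjusted p = 0.0412, and 0.54, SE 0.07, adjusted p = 0.00229, in edgeR), and Ltb, which encodes lymphotoxin beta, rose in the late gate (0.85, SE 0.11, adjusted p = 0.00224). Lymphotoxin alpha and beta together form a ligand of the receptor that Ltbr encodes, an input to the non-canonical route. In the late gate the alpha gene fell without overlap of the groups, while the beta gene was called higher only with the block. The late groups of Ltb overlapped, at 43.9 ± 17.8 CPM in control and 79.9 ± 36.5 CPM in sgStat5 cells. The medians of the list were -0.13 and -0.21 on the log2 scale in the early and late gates, beside -0.00 and -0.02 over all genes.

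None of 27 kinases and adaptors, from the IKK subunits to the TRAF and MALT1 adaptors, and none of 12 brakes, among them Tnfaip3 and Cyld, was called by edgeR in either gate, with or without the block. DESeq2 called none. At an unadjusted p under 0.05 there were 2 and 5 kinases and adaptors in the early and late gates without the block, and 1 and no brakes. Over all 13775 genes there were 887 and 1713. With the block there were 2 and 8 kinases and adaptors, and 1 and 1 brakes, beside 1757 and 3022 of all genes. The medians of both lists lay between -0.09 and 0.03.

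Of 28 genes known as NF-kappaB targets, 23 were tested. In the early gate edgeR called 1 higher, Irf1, an interferon-response factor (0.69, SE 0.08, adjusted p = 0.0308). In the late gate it called 3 higher: Irf1 again (1.22, SE 0.08, adjusted p = 0.00451), the chemokine gene Cxcl10 (4.21, SE 0.74, adjusted p = 0.0447) and the adhesion gene Icam1 (1.08, SE 0.14, adjusted p = 0.0160). Cxcl10 went from 0.423 ± 0.0511 to 7.87 ± 6.26 CPM, with a ratio of 7.50 in replicate 1 and 31.8 in replicate 2, so its fold rests largely on replicate 2. With the block there were 3 higher and 1 lower in the early gate and 4 higher and 2 lower in the late gate. Over all genes, edgeR called 0.269% and 1.71% without the block and 2.33% and 8.22% with it, early and late.

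The targets called with the block included Birc3, an inhibitor of apoptosis and regulator of the non-canonical kinase, which rose in the late gate (0.94, SE 0.15, adjusted p = 0.00601 in edgeR). Bcl2l1, the survival gene Bcl-xL, fell in both gates (by 0.94, SE 0.13, adjusted p = 0.00537, and 1.12, SE 0.13, adjusted p = 0.000831), and Sod2 fell in the late gate (by 0.42, SE 0.08, adjusted p = 0.0139). Ccnd1 and Cxcl10 rose in the early gate (1.52, SE 0.32, adjusted p = 0.0431, and 2.82, SE 0.57, adjusted p = 0.0378). Irf1 and Cxcl10 also respond to interferon and Bcl2l1 to STAT5, so the list does not stand for NF-kappaB alone. The list's median was 0.04 in the early gate and 0.16 in the late gate.

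**Figure D4:**
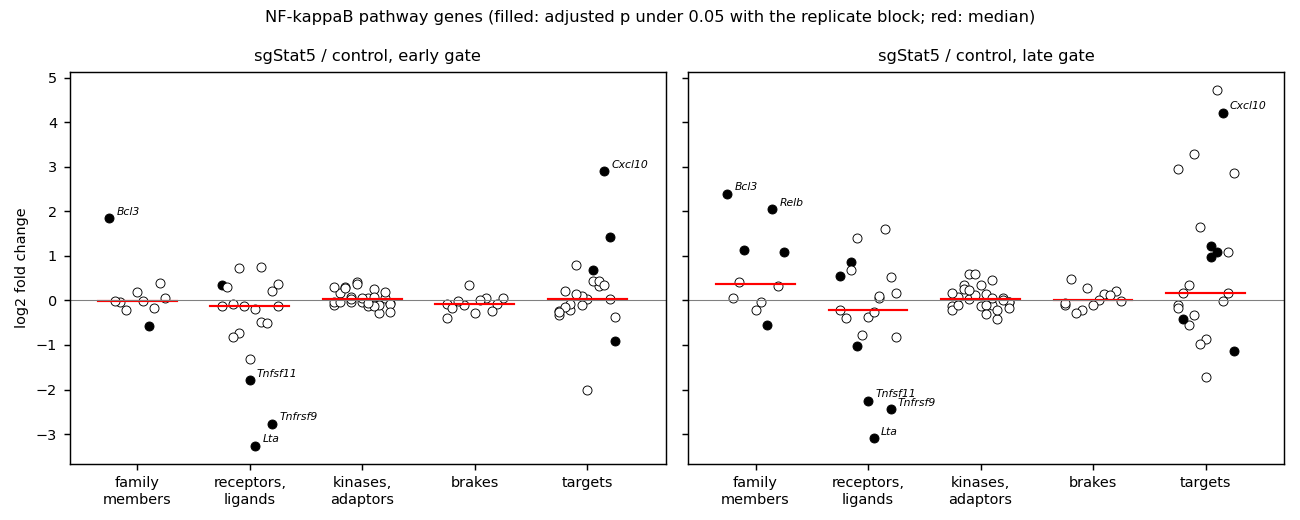
Log2 fold change of sgStat5 against control (y axis, edgeR without the block) for the 10 family genes and the tested genes of the 4 pathway lists (x axis), early gate left and late gate right; each point is 1 gene, filled where the adjusted p was under 0.05 with the replicate block, and red lines are medians. Kinases and adaptors and brakes hold no filled point in either gate, while the filled points of the receptors and ligands reach -3.26 for Lta and those of the targets 4.21 for Cxcl10, whose replicates differed widely.

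Between the gates, edgeR without the block called 1 pathway gene, Irf1, higher in late than in early sgStat5 cells (0.78, SE 0.08, adjusted p = 0.0319). With the block, 5 of 19 receptors and ligands (4 higher, 1 lower), 4 of 27 kinases and adaptors (2 and 2), 1 of 12 brakes and 3 of 23 targets (1 higher, 2 lower) were called in control cells. In sgStat5 cells there were 6 (3 and 3), 7 (4 higher, 3 lower), 4 (3 higher, 1 lower) and 8 (3 higher, 5 lower). The same fit called 10.9% of all genes in control and 22.8% in sgStat5 cells, and several of these counts lie near those shares. Tnfaip3, which encodes the deubiquitinase A20, a feedback brake, rose in both, by 1.22 (SE 0.27, adjusted p = 0.0253) in control and 1.92 (SE 0.28, adjusted p = 0.00226) in sgStat5 cells in edgeR with the block. Ltbr, the lymphotoxin beta receptor, fell in both, by 1.65 (SE 0.21, adjusted p = 0.00324) and 1.33 (SE 0.20, adjusted p = 0.00290), while its ligand gene Ltb rose by 0.79 (SE 0.12, adjusted p = 0.00566) and 1.71 (SE 0.12, adjusted p = 8.9e-05), in the same fit. Without the block Tnfaip3, Ltbr and Ltb were not called, and in control cells the gates overlapped in CPM for Tnfaip3 and Ltb.

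The genes whose pattern over the 8 libraries was most like that of Bcl3 were not other members. Likeness was the root-mean-square difference in log2 CPM, each gene centred on its own mean, over 13774 genes. The 5 nearest were Usp18 (0.38), Tifa (0.41), Sstr2 (0.44), Gm16386 (0.46) and Oasl1 (0.47). Usp18 went from 7.14 to 18.8 CPM in the early gate and from 9.04 to 33.9 in the late gate, and Tifa, which encodes an adaptor of TRAF proteins, from 5.38 to 14.9 and from 4.32 to 26.8. Gm16386 was below 1 CPM in group means, where counting error is large. Of the members, Nfkbiz ranked 890 (0.95), Nfkb2 916 (0.96), Nfkbia 1001 (0.96), Relb 3486 (1.08), Nfkbie 3681 (1.09) and Rela 3704 (1.09). Rel ranked 5215 (1.12), Nfkbib 7339 (1.17) and Nfkb1 11462 (1.39). The distance also depends on the size of a change, so Rela, which differed little between groups, stood about as near as Relb. These ranks are thus not degrees of likeness. The family was chosen with the rise of Bcl3 in these libraries known, so the ranking is a description and no separate support.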

How the data were processed

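Counts are the authors' deposited raw tags over exons, made with HOMER's analyzeRepeats without adjustment and with 1 RefSeq transcript per gene, per the file headers. The deposited FPKM values come from the same program, scaled by length and library, per the file headers. Tools named in the submitters' processing notes are STAR 2.4.0, RSEM 1.2.25 and bcl2fastq 1.8.4, with the GRCm38 (mm10) genome. The kit does not mark strand. The 8 libraries were grouped by their labels into 4 groups of 2.

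The test on the counts was that of edgeR 4.0.16, run in R 4.3.3 (filterByExpr, TMM, quasi-likelihood F-test, two-sided, all 8 libraries, 1 mean per group), adjusted by Benjamini-Hochberg over 13775 genes in each of 5 comparisons, threshold 0.05. SE is the log2 fold change over the root of F. A second fit had the replicate number as a block, because deviations from group means correlated between all 6 pairs of groups (0.421 to 0.578 across genes); what same-numbered libraries share is not stated in the labels. Residual degrees of freedom were 4 and 3. Alternatives were DESeq2 1.42.0, limma 3.58.1 on log2(FPKM + 1) and log2(FPKM + 0.1), other filters and scaling, and leaving out each library. Depth was 22146490 to 31209177 counts per library, and replicates differed by far more than counting error (chi-square per degree of freedom 22.7 to 61.3). The scripts were tested on simulated data. Members and lists were chosen with earlier results of these data known. Named were all 10 members, listed pathway genes that passed with or without the block (at most 6 per list and comparison), and the 5 genes most like Bcl3.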

Additional observations from a re-analysis of the deposited data

Results flagged for a closer look

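In CPM, Nfkb2 and Rel each had both sgStat5 libraries on opposite sides of their control libraries in the 2 gates. Nfkb2 was below control in the early gate and above it in the late gate, and its late effect minus its early effect was 1.34 on the log2 scale (SE 0.37). Rel was above control in the early gate and below it in the late gate, with a difference of -0.41 (SE 0.25). For Rel the late gap rests on 14.09 against 14.13 CPM in replicate 2, and in the deposited FPKM the late groups overlapped. The edgeR fit of the difference called neither gene, with or without the replicate block.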

How the results depend on the processing

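Of 320 log2 fold changes of members between the gates under other settings, 275 kept direction and side of the threshold, 29 passed only under the alternative and 16 changed sign. Of 550 in the sgStat5 comparisons and their difference, 474 moved by at most 1 SE of the fit without the block and 76 by more. For the difference of the effects, the bound was that SE over the root of 2. Members called by edgeR without the block in the order early sgStat5, late sgStat5, late against early control, late against early sgStat5 were 0, 2, 0 and 0. With the replicate block they were 2, 5, 1 and 4, with DESeq2 2, 5, 0 and 4, and with no filter on low counts 2, 4, 0 and 3. With limma on log2(FPKM + 0.1) the late sgStat5 count was 1, on log2(FPKM + 1) the late against early sgStat5 count was 1, and with only the groups of the comparison in the fit the late sgStat5 count was 0. Leaving out a library gave 0 to 1 in late sgStat5 without the block, and with the block 0 to 2 in early sgStat5, 2 to 5 in late sgStat5 and 4 in all fits of late against early sgStat5. The difference of the effects had 0 called throughout. The share of all genes called was recorded only for the edgeR fits of the Results, without and with the block. Counts under the other settings cannot be set against such a share, so nothing is read from them. These 16 sign changes came from leaving out 1 library in late against early comparisons of members that were not called. In control cells the ranges without the block were -0.037 to 0.17 for Rela, -0.38 to 0.27 for Relb, -0.019 to 0.33 for Rel, -0.25 to 0.14 for Nfkb2 and -0.65 to 0.17 for Bcl3. With the block, the values that changed sign were -0.025 for Rela, 0.040 and 0.14 for Relb, -0.062 for Rel, 0.10 for Nfkb2, 0.10 for Bcl3 and -0.018 for Nfkbiz in control cells, and -0.063 for Bcl3 and -0.11 for Nfkbiz in sgStat5 cells. The replicate-block leave-outs were chosen after seeing the data. The cause of these changes was not tested. Scaling by RLE in place of TMM left the median of all genes within 0.04 of 0. With 2 libraries a group, a difference that was not called may still be present.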
